A study of Homo sapiens with 9 samples.

Results

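The genes described here are 40 genes of glucose uptake, glycolysis, lactate handling and the response to low oxygen, chosen by name from the 60603 genes counted in TC32 cells. TC32 is a long-used line of Ewing sarcoma, a tumour of bone and soft tissue driven by the fusion transcription factor EWS::FLI1. Cells were plated on siEF, an siRNA over the fusion's breakpoint, on the nonspecific siRNA siNEG, or kept as the group labelled Media, and RNA was sequenced at 30 h in 3 biological replicates per group. All 9 libraries came from the 1 cell line, labelled WT and grown in serum, and no label names exposure to low oxygen. The comparison of siEF with siNEG asked how these genes differed once the fusion was silenced, and siNEG against Media measured the background of the transfection.

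Glycolysis converts glucose to pyruvate in the cytosol, and many tumours run it fast and turn the pyruvate into lactate even where oxygen is present. The response to low oxygen is run by HIF, a dimer of an oxygen-labile alpha subunit, HIF1A or EPAS1, with the stable ARNT. When oxygen is present, prolyl hydroxylases of the EGLN family mark the alpha subunits for destruction, and when it is short the dimer binds hypoxia response elements beside its target genes, among them most genes of glycolysis.

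Libraries held between 20727706 and 33134581 expected counts, with siEF at 20727706 to 30087498, siNEG at 30351393 to 33134581 and Media at 28702350 to 31313067. Mitochondrial transcripts took 3.16% to 4.55% of the counts in siEF, 1.53% to 3.53% in siNEG and 1.65% to 3.17% in Media, and their part in the results was not tested. Replicate 1 of siNEG differed most from its group, at a chi-square per degree of freedom of 18.2 and 23.2 against the other 2 libraries, and values that turned on it are given without it. The 40 members took 1.44% to 1.51% of the counts in siEF, 1.87% to 1.92% in siNEG and 1.85% to 2.08% in Media. The row of FLI1 receives reads from the FLI1 part of the fusion, and the study states that these cells do not express FLI1 itself. By the study's methods, silencing was checked by qPCR, with a 3-cycle change in expression. The FLI1 row was at 38.4, 35.5 and 39.4 CPM (counts scaled to a common library size) in siEF replicates 1, 2 and 3. It was at 48.6, 48.5 and 48 in siNEG and 59.5, 56.2 and 57.9 in Media, so every siEF library was below every other. By edgeR, its log2 fold change was -0.35 between siEF and siNEG (adjusted P = 2.88e-05). Between siNEG and Media it was -0.26 (adjusted P = 0.00347), so siNEG was itself below Media. Of 6 Ewing sarcoma markers, 4 fell past the threshold defined below (NKX2-2, NR0B1, STEAP1 and PRKCB). At the adjusted P alone FLI1 was also lower, and CD99 was 0.23 higher in siEF than in siNEG on the log2 scale. The summed level of all 6 was 413 to 418 CPM in siEF, 746 to 755 in siNEG and 876 to 925 in Media. Between siNEG and Media, 4 of the 6 were lower at the adjusted P. Markers of other cell types were low or at 0, and some of them differed between the groups. The 4 of blood cells summed to 0.735 to 0.903 CPM in siEF and 0.678 to 0.821 in siNEG, with CD3E at 0 in all 9 libraries, and the 3 of endothelium to 1.81 to 2.69 in siEF and 3.43 to 4.77 in siNEG. The 2 of epithelium, EPCAM and CDH1, summed to 1.22 to 1.48 CPM in siEF and 0 to 0.0884 in siNEG, and both were called higher in siEF. EPCAM had 13, 9 and 9 counts in siEF, 1, 3 and 0 in siNEG and 13, 10 and 13 in Media. CDH1 had 28, 16 and 27 counts in siEF, 0, 0 and 0 in siNEG and 2, 3 and 2 in Media. The part of the cells these markers stand for in the results was not tested. The 5 markers of skeletal muscle summed to 4.01 to 5.39 CPM in siEF and 1.295 to 1.795 in siNEG, with MYOD1 and MYOG at 0 in all 9 libraries and MYH3, an embryonic muscle myosin, at 4.77 ± 0.696 CPM in siEF and 1.5 ± 0.293 in siNEG (mean ± SD, n = 3). In bulk RNA, fewer cells that express a gene and less of its RNA per cell cannot be told apart.

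A gene was called when the adjusted P of edgeR's quasi-likelihood test was under 0.01 and its log2 fold change was beyond 1 in either direction. Enough reads for the test were found in 39 of the 40 members. The exception was CA9, a carbonic anhydrase of the cell surface and a classical HIF1A target, which had 1, 0 and 0 counts in siEF, 5, 0 and 1 in siNEG and 0, 1 and 1 in Media.

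Silencing of the fusion was accompanied by lower levels of most genes that bring glucose in and carry it to lactate. Several HIF targets outside glycolysis and the HIF subunit EPAS1 were at higher levels. Between siEF and siNEG, 9 of the 39 members were called lower and 6 were called higher (9 and 5 without siNEG replicate 1). Over all 16093 genes tested, 11.7% were called lower and 17.1% higher. At the adjusted P alone, 20 members were lower and 12 higher, against 31.7% and 33.6% of all genes. For 22 members the highest siEF library was below the lowest siNEG library and for 13 the order was the opposite, and 76.9% of all genes tested showed no overlap in one direction or the other. The median log2 fold change was -0.27 over the 39 members and 0.046 over all genes tested.

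The plot of every library's level shows how closely the replicates sat together for most members.

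**Figure D1:**
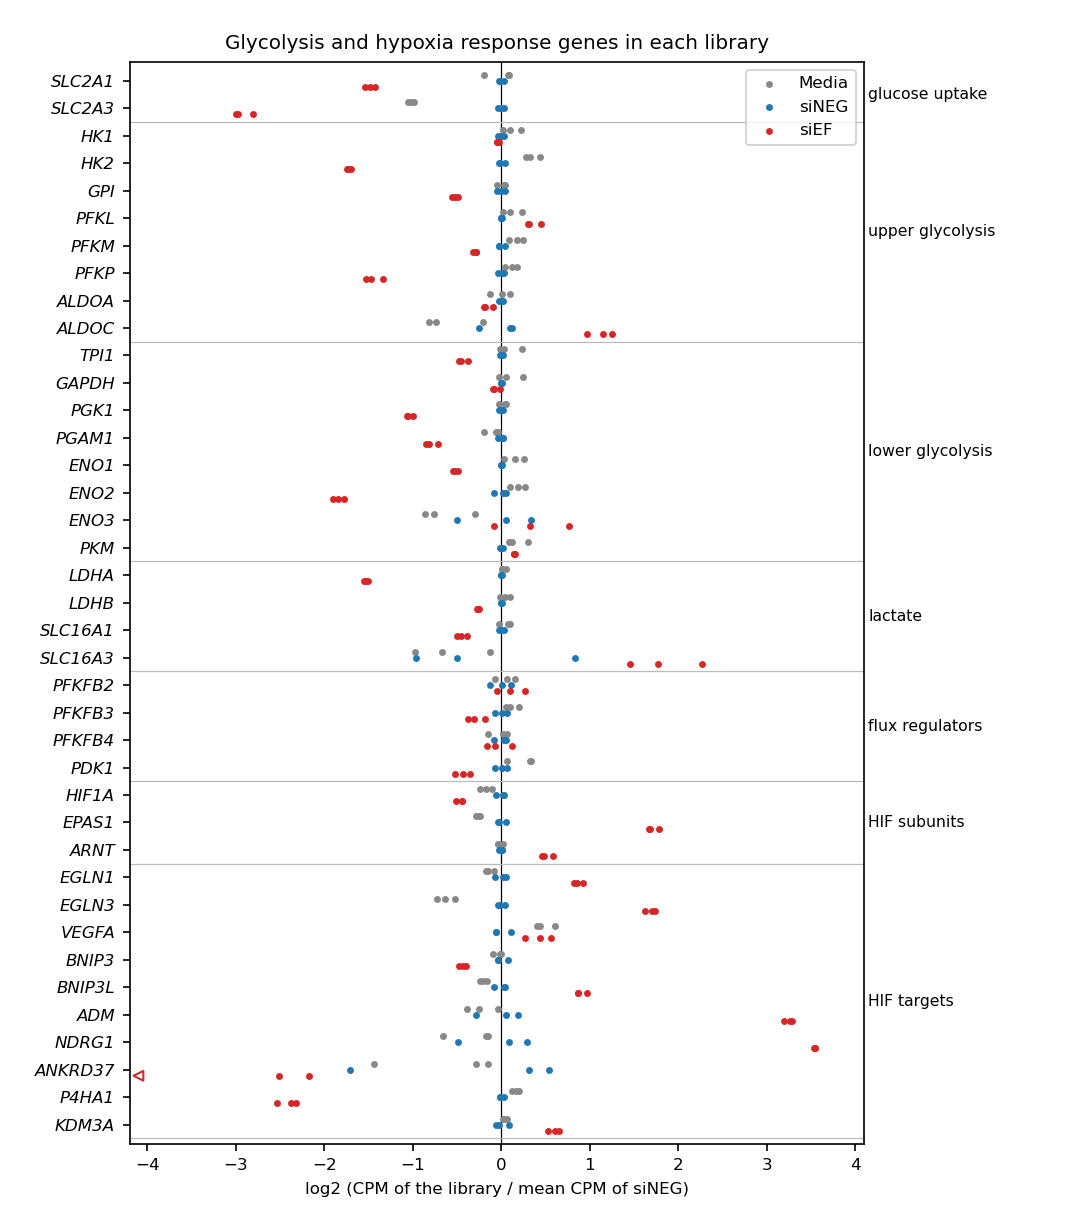
Level of the 39 tested members in each of the 9 libraries, as the log2 of the library's CPM over the mean CPM of siNEG, grouped by role. Each point is a library, and the open triangle at the left edge marks siEF replicate 2 for ANKRD37, which had 0 counts. The siEF points of SLC2A3, P4HA1, ENO2, HK2 and LDHA lie far left of the other libraries and those of NDRG1 and ADM far right.

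The members were counted by role, beside shares over all genes tested of 11.7% called lower and 17.1% called higher. At the adjusted P alone those shares were 31.7% lower and 33.6% higher. Of the 22 tested genes of glucose transport, glycolysis and lactate, 7 were called lower and 2 higher, and at the adjusted P alone 14 were lower, 3 higher and 5 neither, with a median log2 fold change of -0.44. Of the 4 regulators of flux, 2 were lower at the adjusted P alone, by less than the threshold of size. Of the 3 HIF subunits, 1 was called higher. Of the 10 tested members grouped as HIF targets, 2 were called lower and 3 higher. At the adjusted P alone 3 of them were lower and 7 higher, with a median log2 fold change of 0.73. Genes of glucose transport, glycolysis and lactate were not in that group, although most genes of glycolysis are also HIF targets.

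A hypoxia response element carries the letters ACGTG at its core, and the letters were looked for on both strands of the RefSeq promoters on GRCh38.p14, from 250 bases before to 50 after the start of transcription. A promoter was found for 34 of the 40 members. ACGTG was present in 16 of the 34 (47.1%), in 6 of 8 called lower (75%) and in 2 of 5 called higher (40%), and 26.6% of the 10938 promoters of tested genes held it. The longer letters CACGTG, an E-box that contains ACGTG on either strand, were in 6 of the 34 members (17.6%) and in 10.1% of all promoters. A further core, GCGTG, was in 16 of 34 (47.1%) against 51.8% of all. GGAA, the core read by ETS factors such as FLI1, was in 31 of 34 (91.2%) against 95.1%, and its tandem repeat GGAAGGAA in 0 of 34 against 3.34%. The 7 promoters printed next are those of called members that held ACGTG, other than ANKRD37 with its few counts, shown so that its number and place in genes that fell and genes that rose can be compared. They lie at chr2:74833877-74834176 on the plus strand (HK2), chrX:78103998-78104297 on the plus strand (PGK1), chr12:6914330-6914629 on the plus strand (ENO2), chr11:18394313-18394612 on the plus strand (LDHA), chr10:73096817-73097116 on the minus strand (P4HA1), chr17:28576846-28577145 on the minus strand (ALDOC) and chr17:82228792-82229091 on the plus strand (SLC16A3). Each runs 5′ to 3′ along its gene, with ACGTG or its reverse complement in capitals.
HK2 (fell): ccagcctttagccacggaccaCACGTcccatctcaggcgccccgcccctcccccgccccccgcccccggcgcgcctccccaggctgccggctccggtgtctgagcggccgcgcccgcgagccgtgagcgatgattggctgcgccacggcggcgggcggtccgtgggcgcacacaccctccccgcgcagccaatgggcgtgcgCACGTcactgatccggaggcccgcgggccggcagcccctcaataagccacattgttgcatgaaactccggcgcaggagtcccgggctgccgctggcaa
PGK1 (fell): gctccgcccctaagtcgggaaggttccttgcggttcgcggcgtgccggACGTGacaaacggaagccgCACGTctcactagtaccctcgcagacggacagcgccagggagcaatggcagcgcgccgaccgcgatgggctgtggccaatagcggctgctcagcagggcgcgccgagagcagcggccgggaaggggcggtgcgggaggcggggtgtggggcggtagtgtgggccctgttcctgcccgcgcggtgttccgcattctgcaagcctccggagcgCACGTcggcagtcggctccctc
ENO2 (fell): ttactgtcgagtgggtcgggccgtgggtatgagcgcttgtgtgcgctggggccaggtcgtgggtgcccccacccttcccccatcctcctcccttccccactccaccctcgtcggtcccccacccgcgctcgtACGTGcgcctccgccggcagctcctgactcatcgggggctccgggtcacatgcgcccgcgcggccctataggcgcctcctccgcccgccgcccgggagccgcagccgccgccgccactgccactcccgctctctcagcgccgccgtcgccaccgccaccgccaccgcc
LDHA (fell): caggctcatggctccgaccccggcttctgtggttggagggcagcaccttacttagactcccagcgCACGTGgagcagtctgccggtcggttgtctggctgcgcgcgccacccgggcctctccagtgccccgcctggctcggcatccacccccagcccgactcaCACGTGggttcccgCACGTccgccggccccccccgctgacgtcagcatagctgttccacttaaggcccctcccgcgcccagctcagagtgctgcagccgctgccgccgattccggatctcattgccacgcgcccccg
P4HA1 (fell): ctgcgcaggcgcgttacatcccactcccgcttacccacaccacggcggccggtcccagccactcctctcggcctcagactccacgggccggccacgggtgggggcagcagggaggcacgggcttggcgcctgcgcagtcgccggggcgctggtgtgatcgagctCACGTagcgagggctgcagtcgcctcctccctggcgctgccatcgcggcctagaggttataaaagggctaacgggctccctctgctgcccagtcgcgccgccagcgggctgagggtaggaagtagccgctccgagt
ALDOC (rose): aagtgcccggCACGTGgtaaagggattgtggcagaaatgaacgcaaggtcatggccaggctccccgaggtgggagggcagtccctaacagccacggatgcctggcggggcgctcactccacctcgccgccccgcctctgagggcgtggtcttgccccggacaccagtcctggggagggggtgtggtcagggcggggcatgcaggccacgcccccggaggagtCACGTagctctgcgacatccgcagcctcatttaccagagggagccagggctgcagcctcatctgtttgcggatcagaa
SLC16A3 (rose): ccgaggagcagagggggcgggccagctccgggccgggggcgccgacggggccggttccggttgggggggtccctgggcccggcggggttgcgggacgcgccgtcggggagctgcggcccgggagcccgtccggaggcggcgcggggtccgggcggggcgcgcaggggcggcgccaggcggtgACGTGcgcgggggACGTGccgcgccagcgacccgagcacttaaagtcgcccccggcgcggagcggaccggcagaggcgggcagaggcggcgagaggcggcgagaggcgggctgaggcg
The letters matched 5 times in LDHA, 3 times in PGK1 and ALDOC, 2 times in HK2 and SLC16A3, and 1 time in ENO2 and P4HA1, where each CACGTG counts 2 times because both of its strands match. LDHA held 2 of these E-boxes and ALDOC 1. The called members SLC2A1, PFKP, EPAS1, EGLN3 and ADM had a promoter without ACGTG in this window. For PFKP the window was set on a RefSeq start 422 bases from the start of the GENCODE canonical transcript, which it did not cover. The starts used for GPI, HK1, GAPDH, PGAM1 and PFKM lay 204, 217, 747, 1627 and 3283 bases from the canonical start.

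Glucose enters through facilitative transporters, and both members of this kind fell. SLC2A1, the widespread basal transporter (chr1:42925353-42958893, hg38), was at 22.6, 23.5 and 21.8 CPM in siEF replicates 1, 2 and 3, 62.2, 64.9 and 62.8 in siNEG and 67.2, 66.5 and 55.4 in Media. The siEF libraries stood apart from all 6 controls, which overlapped each other. The log2 fold change between siEF and siNEG was -1.49 ± 0.074 (SE, n = 3 per group; adjusted P = 1.60e-11, edgeR with Benjamini-Hochberg adjustment, as for all adjusted P below). SLC2A3, a transporter of high glucose affinity best known from neurons (chr12:7919230-8019007), was at 11.6, 11.5 and 13.1 CPM in siEF, 89.5, 91.9 and 94 in siNEG and 45.3, 44.3 and 46.5 in Media. The 3 groups did not overlap, and its level in siNEG was 7.6 times that in siEF. It was the member that fell furthest, at a log2 fold change of -2.92 ± 0.065 (adjusted P = 9.08e-16). SLC2A3 was also the only member called between siNEG and Media, 1.02 higher in siNEG on the log2 scale (adjusted P = 7.63e-09), where 0.429% of all genes were called in either direction. Against Media, which shares the siEF libraries with the first contrast, its log2 fold change was -1.90 (adjusted P = 1.48e-13).

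In upper glycolysis, HK2 and PFKP fell, ALDOC rose, and the abundant HK1 and ALDOA passed neither threshold. HK2, the inducible hexokinase that traps glucose as its phosphate (chr2:74834127-74893359), was at 16.6, 16.8 and 17.1 CPM in siEF, 54.7, 54.9 and 57.3 in siNEG and 67.5, 75.3 and 69.5 in Media. No group overlapped another, and the siEF libraries were the lowest. For HK2 the log2 fold change was -1.72 ± 0.062 (adjusted P = 2.78e-13). HK1, the constitutive hexokinase, was at 216 ± 1.98 CPM in siEF and 223 ± 4.95 in siNEG (mean ± SD, n = 3 each), with overlapping libraries and a log2 fold change of -0.043 ± 0.048 (adjusted P = 0.43). PFKP, the platelet-type subunit of phosphofructokinase, the enzyme of the committed step (chr10:3066333-3137718), was at 76.1, 86.8 and 78.7 CPM in siEF, 214, 219.8 and 223 in siNEG and 247, 238 and 225 in Media. Every siEF library was below every control. The log2 fold change of PFKP was -1.45 ± 0.053 (adjusted P = 3.79e-13).

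The other subunits of the enzyme moved less and in opposite directions. PFKL, the liver-type subunit, went from 93 ± 0.61 CPM in siNEG to 119 ± 6.77 in siEF, a log2 fold change of 0.35 ± 0.057 (adjusted P = 3.24e-05). PFKM, the muscle-type subunit, went from 82.8 ± 2.04 to 67.3 ± 0.775 CPM (-0.30 ± 0.051, adjusted P = 5.92e-05). Its exons overlap those of SENP1 on the opposite strand, which had up to 1510 counts in a library and also fell, by 0.75 on the log2 scale. GPI, the isomerase between hexokinase and phosphofructokinase, went from 427 ± 13.2 to 297 ± 6.7 CPM and fell by 0.52 on the log2 scale (adjusted P = 9.62e-09). ALDOA, the main aldolase, had a log2 fold change of -0.16 ± 0.052 (adjusted P = 0.0133), although its 3 siEF libraries, at 901, 955 and 894 CPM, were all below the siNEG libraries, at 999.7, 1025 and 1039. ALDOC, the brain aldolase (chr17:28573115-28576948), was at 5.46, 6.17 and 6.62 CPM in siEF, 2.34, 3.04 and 2.98 in siNEG and 2.42, 1.59 and 1.68 in Media. The siEF libraries were the highest, and siNEG and Media overlapped. Its log2 fold change was 1.12 ± 0.18 (adjusted P = 3.49e-05), and without siNEG replicate 1 it was 0.98, below the threshold of size.

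Of the 8 members of lower glycolysis, 2 were called lower and 5 were lower at the adjusted P alone, against 11.7% and 31.7% of all genes tested. PGK1, the first enzyme of the pathway to yield ATP (chrX:77910739-78129295), was at 313, 325 and 311 CPM in siEF, 657, 651 and 638 in siNEG and 666, 676 and 637 in Media. The siEF libraries lay together at about the same distance below both controls. The log2 fold change of -1.04 ± 0.042 (adjusted P = 1.13e-12) sat close to the threshold of size and was -0.95 with upper quartile scaling. Exons annotated to PGK1 overlap ATP7A on the same strand, which had up to 1568 counts in a library and a log2 fold change of -1.36. ENO2, the neuronal enolase (chr12:6913745-6923698), was at 34.7, 36.2 and 33.2 CPM in siEF, 129, 126 and 118 in siNEG and 149.5, 142 and 134 in Media. ENO2 showed the largest fall of the glycolytic enzymes among the 40 members, -1.84 ± 0.059 on the log2 scale (adjusted P = 5.99e-14), with no overlap among the 3 groups.

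Further enzymes of lower glycolysis fell without reaching the threshold of size. PGAM1, the mutase, went from 836 ± 20.9 to 483 ± 25.1 CPM, a log2 fold change of -0.79 ± 0.051 (adjusted P = 4.44e-10). ENO1, the main enolase, went from 3403 ± 13.4 to 2375 ± 51.8 CPM (-0.52 ± 0.049, adjusted P = 5.97e-08). TPI1, the triose phosphate isomerase, went from 733 ± 10.2 to 542 ± 19.3 CPM and fell by 0.44 on the log2 scale (adjusted P = 2.59e-06). GAPDH, the dehydrogenase often taken as a reference gene (chr12:6534512-6538374), was at 4413, 4635 and 4371 CPM in siEF, 4650, 4650 and 4717 in siNEG and 5545, 4851 and 4602 in Media. Its siEF libraries lay just below the siNEG libraries and overlapped those of Media, and the log2 fold change of -0.063 ± 0.055 did not pass (adjusted P = 0.311, 95% interval -0.18 to 0.053). PKM, pyruvate kinase, was at 2284 ± 4.6 CPM in siEF and 2060 ± 29.2 in siNEG (0.15 ± 0.049, adjusted P = 0.0125). ENO3, the muscle enolase, stayed at a low level of 2.77 ± 0.817 CPM in siEF and 2.13 ± 0.595 in siNEG (adjusted P = 0.189), and its exons overlap PFN1 on the opposite strand, which had up to 24073 counts in a library.

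Of the genes that make and move lactate, LDHA fell and SLC16A3 rose. LDHA, the lactate dehydrogenase subunit of muscle and of many tumours (chr11:18394560-18408425), was at 648, 659 and 636 CPM in siEF, 1859, 1873 and 1872 in siNEG and 1934, 1876 and 1886 in Media. Its siEF level was 34.7% of the siNEG level, and the spread within each group was small beside the difference. LDHA had a log2 fold change of -1.53 ± 0.039 (adjusted P = 4.66e-15). Pseudogenes of LDHA took 2.71% to 3.42% of the counts of LDHA and its pseudogenes together, and adding them to the gene changed no call. LDHB, the subunit typical of heart, went from 968 ± 4.87 to 805 ± 6.58 CPM and fell by 0.27 on the log2 scale (adjusted P = 1.97e-05). SLC16A1, a lactate transporter of most tissues, went from 243 ± 5.14 to 179 ± 7.15 CPM and fell by 0.44 on the log2 scale (adjusted P = 2.02e-07). SLC16A3, the lactate exporter of glycolytic cells (chr17:82217934-82261129), was at a low level of 1.7, 2.4 and 1.37 CPM in siEF, 0.885, 0.354 and 0.256 in siNEG and 0.457, 0.254 and 0.314 in Media. All siEF libraries were above all controls, and siNEG replicate 1 was the highest control. The log2 fold change of 1.85 ± 0.42 (adjusted P = 8.77e-04) became 2.51 without that library. The exons of SLC16A3 overlap CSNK1D on the opposite strand, which had up to 6153 counts in a library and was 0.83 higher in siEF on the log2 scale (adjusted P = 3.52e-11). The part of those reads in the value of SLC16A3 was not tested.

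The regulators of flux changed little. PFKFB enzymes make and break the fructose bisphosphate that activates phosphofructokinase, and PFKFB3 is the form with the strongest kinase activity (chr10:6144934-6254644). PFKFB3 was at 114, 124 and 109 CPM in siEF, 134, 147 and 142 in siNEG and 151, 162 and 146 in Media. The siEF libraries were the lowest, and the log2 fold change was -0.29 ± 0.057 (adjusted P = 2.12e-04). PFKFB2 and PFKFB4 had log2 fold changes of 0.12 and -0.031, with overlapping libraries (adjusted P = 0.392 and 0.818). The exons of PFKFB2 overlap YOD1 on the opposite strand, which had up to 1927 counts in a library and was 0.58 lower in siEF on the log2 scale, and the part of those reads in the value of PFKFB2 was not tested. PDK1, a kinase that shuts pyruvate dehydrogenase, went from 11.9 ± 0.548 to 8.8 ± 0.524 CPM (-0.43 ± 0.098, adjusted P = 8.22e-04).

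**Figure D2:**
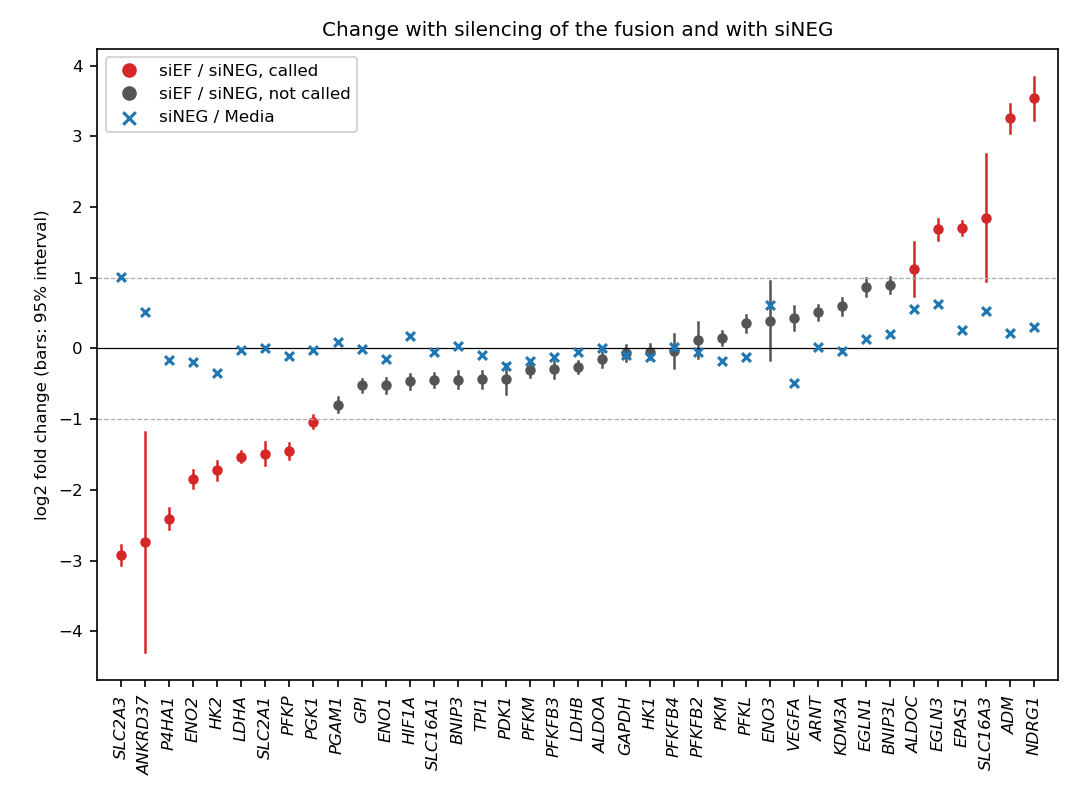
Log2 fold change of the 39 tested members between siEF and siNEG (circles, bars are 95% intervals, red where called), in order of size, with the log2 fold change between siNEG and Media as crosses and dashed lines at the thresholds of size. SLC2A3 lies lowest at -2.92 and NDRG1 highest at 3.54, and the crosses lie between -0.49 and 0.63 except that of SLC2A3 at 1.02.

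The alpha subunits of HIF moved in opposite directions. HIF1A (chr14:61695513-61748259) was at 84, 80.1 and 84.4 CPM in siEF, 109.8, 116 and 117 in siNEG and 96.9, 101 and 106 in Media, the lowest in siEF and with no overlap among the groups. Its log2 fold change was -0.46 ± 0.05 (adjusted P = 3.05e-07). EPAS1, the alpha subunit known from endothelium and kidney tumours (chr2:46293667-46386697), was at 274, 277 and 297 CPM in siEF, 85, 84.3 and 89.6 in siNEG and 70.6, 73 and 72.6 in Media. The siEF level was 3.27 times the siNEG level, a log2 fold change of 1.71 ± 0.047 (adjusted P = 9.39e-15), and siNEG was itself 0.26 above Media on the log2 scale. ARNT, the shared partner, rose from 60.3 ± 0.924 to 86 ± 4.04 CPM (0.51 ± 0.051, adjusted P = 1.12e-07). The alpha proteins, whose amount is set by their breakdown, were not measured.

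Among HIF targets, both EGLN genes, which encode the hydroxylases of HIF itself, rose. EGLN3, a prolyl hydroxylase that is itself induced by low oxygen (chr14:33924227-34462774), was at 41.4, 42.2 and 38.9 CPM in siEF, 12.6, 13.1 and 12.4 in siNEG and 8.13, 8.79 and 7.65 in Media. The groups did not overlap, with siEF highest and Media lowest. The log2 fold change was 1.69 ± 0.07 against siNEG (adjusted P = 1.48e-12) and 2.31 against Media. EGLN1, the main oxygen sensor of the family, rose from 35.9 ± 1.64 to 65.6 ± 2.32 CPM (0.87 ± 0.058, adjusted P = 6.79e-10).

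ADM and NDRG1 rose more than any other member. ADM, which encodes the vasodilator peptide adrenomedullin (chr11:10305073-10307397), was at 123, 129 and 131 CPM in siEF, 15.3, 11 and 13.9 in siNEG and 13.1, 11.2 and 10.3 in Media. Both controls overlapped each other, and siEF was 9.53-fold above siNEG on average, a log2 fold change of 3.25 ± 0.097 (adjusted P = 2.95e-14). NDRG1, a stress and differentiation gene (chromosome 8), was at 29.6, 29.3 and 29.5 CPM in siEF, 1.8, 2.68 and 3.11 in siNEG and 2.25, 2.28 and 1.61 in Media. The siEF libraries lay close together, 11.6-fold above siNEG on average, a log2 fold change of 3.54 ± 0.14 (adjusted P = 9.17e-13).

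Of the members grouped as HIF targets, which leave out the genes of glycolysis, P4HA1 and ANKRD37 were called lower. P4HA1, the catalytic subunit of the collagen prolyl hydroxylase (chr10:73007217-73096974), was at 8.09, 9.06 and 9.39 CPM in siEF, 46.4, 47.8 and 46.5 in siNEG and 51.2, 52.5 and 53.8 in Media. Every siEF library was far below every control. For P4HA1 the log2 fold change was -2.41 ± 0.069 (adjusted P = 1.67e-14). ANKRD37, an ankyrin repeat gene (chr4:185396021-185400628), had 3, 0 and 4 counts in siEF, 6, 26 and 28 in siNEG and 7, 16 and 16 in Media. Its lowest siNEG library and its highest siEF library were 2 counts apart, and its log2 fold change was -2.74 ± 0.73 (adjusted P = 0.00309). The call was lost without siEF replicate 1, siEF replicate 2, siNEG replicate 2 or siNEG replicate 3 (log2 fold changes -2.91, -2.30, -2.56 and -2.39, adjusted P = 0.0108 to 0.0172), and its exons overlap UFSP2 on the opposite strand, which had up to 809 counts.

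The remaining targets changed by less than the threshold of size against siNEG. BNIP3L and BNIP3, related receptors that mark mitochondria for removal, went opposite ways. BNIP3L rose from 60.1 ± 3.05 to 112 ± 4.71 CPM, or 0.90 ± 0.054 on the log2 scale (adjusted P = 1.69e-10). BNIP3 went from 55.8 ± 2.45 to 41.1 ± 1.16 CPM, or -0.44 ± 0.057 (adjusted P = 2.77e-06). BNIP3L overlaps PNMA2 on the opposite strand, which was 0.77 lower in siEF on the log2 scale. KDM3A, a histone demethylase, rose from 45.8 ± 2.45 to 69.2 ± 3.16 CPM, by 0.59 on the log2 scale (adjusted P = 7.74e-08). VEGFA, the main growth factor of blood vessels, was at 41.9 ± 4.3 CPM in siEF, 31.2 ± 2.26 in siNEG and 43.7 ± 3.45 in Media. Its log2 fold change was 0.43 ± 0.082 against siNEG (adjusted P = 1.68e-04) and -0.057 against Media (adjusted P = 0.536), and siNEG lay 0.49 below Media on the log2 scale.

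Where several genes encode forms of the same enzyme or transporter, the balance between them was given as each gene's share of the set's summed CPM per kilobase of exons. In all 8 sets, and in the pair of HIF1A and EPAS1, the siEF shares lay outside the siNEG range for each gene. That pair was added after its values were seen. Each of 21 shares had an exact two-sided permutation P of 0.1 (0.1 adjusted), the smallest that 3 libraries against 3 can give. By level, 76.9% of all genes tested also had their siEF libraries outside the siNEG range, so such separation was common. Shares of a set add up to the whole, so within a pair each share mirrors the other, and the 21 are not separate results. HK2 made up 8.29% ± 0.0569 (SD, n = 3) of the hexokinase pair in siEF, 22.5% ± 0.2 in siNEG and 25.4% ± 1.95 in Media. LDHA made up 28.5% ± 0.346 of the lactate dehydrogenase pair in siEF, 48.9% ± 0.231 in siNEG and 48.5% ± 0.705 in Media, so that LDHB was the larger of the pair in siEF and about level with LDHA in the controls. By the length of the longest transcript the LDHA share was 35.6% in siEF and 57.0% in siNEG, which makes LDHA the larger of the pair in siNEG.

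PFKP held the largest share of the phosphofructokinases in siNEG, at 56.4% ± 0.297, and 31.4% ± 0.868 in siEF. PFKL went the other way, from 20.8% ± 0.242 to 40.4% ± 0.64. Which of the 2 was larger in siEF depended on the length used, since by the longest transcript PFKP made up 39% and PFKL 31.3%. SLC2A3 made up 32.7% ± 2.41 of the glucose transporter pair in siEF, 56.9% ± 0.698 in siNEG and 39.7% ± 3.15 in Media, so that the share in Media lay nearer to siEF than to siNEG. Among forms that are minor here, ENO2 went from 4.26% ± 0.208 to 1.75% ± 0.0381 of the enolases, ALDOC from 0.398% ± 0.049 to 0.964% ± 0.0988 of the aldolases and SLC16A3 from 0.141% ± 0.0956 to 0.702% ± 0.227 of the lactate transporters. PFKFB3 remained the main bifunctional kinase, at 90.9% ± 0.91 in siEF and 92.5% ± 0.486 in siNEG. EPAS1 made up 70.7% ± 0.832 of the alpha subunit pair in siEF, 34.8% ± 0.743 in siNEG and 33.4% ± 0.78 in Media, so the more abundant alpha subunit RNA per length was HIF1A in the controls and EPAS1 in siEF.

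**Figure D3:**
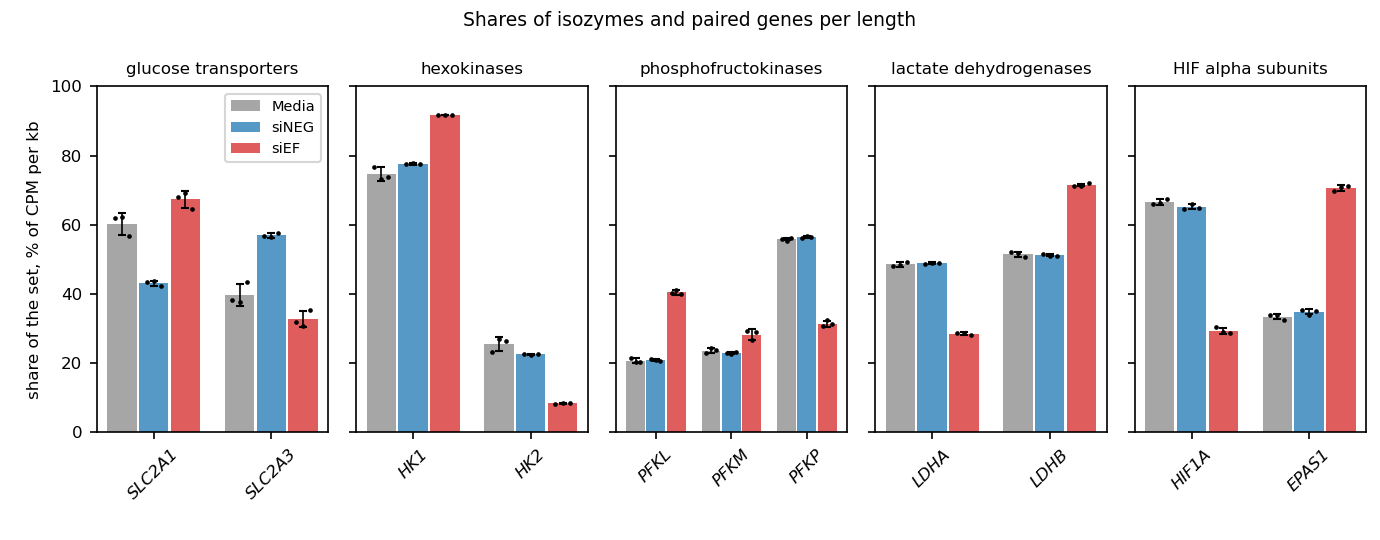
Share of each gene in the summed CPM per kilobase of its set (bars are means of 3 libraries, error bars SD, points the libraries), for glucose transporters, hexokinases, phosphofructokinases, lactate dehydrogenases and the HIF alpha subunits. HK2, PFKP and LDHA hold smaller shares in siEF than in both control groups, and EPAS1 a larger one.

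Ordered by level per kilobase, the most abundant member was GAPDH in all 3 groups, at 1867 ± 59.2 CPM per kb in siEF and 1950 ± 16.1 in siNEG, and ENO1 was next at 455 ± 9.92 and 652 ± 2.58. LDHA went from 5th of 40 in siNEG to 8th in siEF, and the neighbours PGAM1, LDHB, LDHA, TPI1, ALDOA and PKM in the siNEG order all lay between 240.3 and 329 CPM per kb. ADM moved from 28th to 10th, EPAS1 from 21st to 11th, P4HA1 from 17th to 29th, SLC2A3 from 20th to 33rd and ENO2 from 13th to 24th. CA9 was last in every group.

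**Figure D4:**
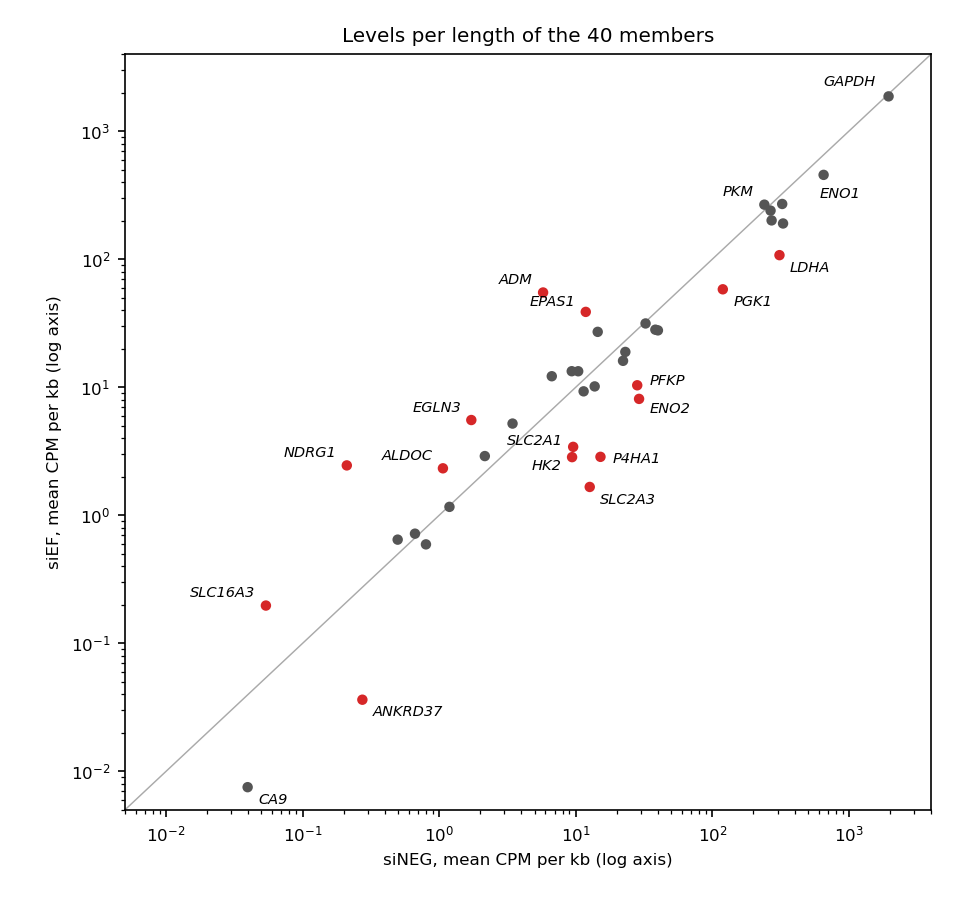
Mean CPM per kilobase of exons of the 40 members in siNEG (x axis) and siEF (y axis), both on log axes, with the line of equal levels and called members in red. ADM, EPAS1, EGLN3, NDRG1, ALDOC and SLC16A3 lie above the line, and of the abundant glycolytic genes at the top right PKM lies slightly above it and the others below it.

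Some members also differed with the nonspecific siRNA. Between siNEG and Media, 2 of the 39 were lower at the adjusted P (HK2, log2 fold change -0.35, and VEGFA, -0.49) and 3 higher (SLC2A3, 1.02, EGLN3, 0.63, and EPAS1, 0.26), against 5.96% and 3.83% of all genes tested. Without Media replicate 3, 5 members were lower. The levels of SLC2A3, EGLN3 and EPAS1 were thus higher in siNEG than in Media, while siEF lay below both controls for SLC2A3 and above both for the other two.

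With Media as the control, which uses the same siEF libraries, 8 members were called lower and 8 higher, against 12.5% and 17.4% of all genes. At the adjusted P alone, 20 were lower and 12 higher, against 32.3% and 33.6%. ENO3 (1.01) and BNIP3L (1.11) were called higher in this comparison and ANKRD37 (-2.22, adjusted P = 0.0158) was not called. The other 14 members called against siNEG were called in the same direction against Media.

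Genes around these pathways were taken from lists of genes that are not members. The lists were chosen with earlier results of these data known, so their counts beside the shares of all genes are a description only. In the rest of glycolysis and the entry of pyruvate into mitochondria, 24 of 36 listed genes were tested, 4 were called lower and 5 higher, against 11.7% and 17.1% of all genes tested, and the median log2 fold change was -0.28. DLAT, the acetyltransferase core of pyruvate dehydrogenase, was at 29.3, 24.1 and 24.4 CPM in siEF and 148, 156 and 149.6 in siNEG (-2.54 ± 0.07, adjusted P = 1.18e-14). BPGM, which diverts an intermediate of lower glycolysis, had a log2 fold change of -2.25 ± 0.12 (adjusted P = 4.17e-11). FBP1, which runs the phosphofructokinase step backwards in gluconeogenesis, had 49, 42 and 53 counts in siEF and 0 in all 6 control libraries, at least 20.2-fold higher against 3 counts per library.

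The citrate cycle followed with 4 of 16 genes called lower, 10 lower and 2 higher at the adjusted P alone, and a median of -0.31, where 11.7% of all genes were called lower and 31.7% were lower at the adjusted P alone. IDH3A, a subunit of isocitrate dehydrogenase, went from 87.2 ± 2.6 to 27.2 ± 0.953 CPM (-1.68 ± 0.054, adjusted P = 6.82e-14), OGDH from 144 ± 3.32 to 63.1 ± 3.52 and FH from 133 ± 2.43 to 59.2 ± 2.87, and the fourth was SDHB (-1.15). Of 8 tested genes of the pentose phosphate pathway, 2 were called lower and 1 higher, against 11.7% and 17.1% of all genes. Their median was -0.035. RPE and RPIA, which interconvert pentose phosphates, had log2 fold changes of -2.21 ± 0.066 and -1.47 ± 0.063, and RBKS, the ribokinase, 1.47 ± 0.23 (adjusted P = 2.72e-14, 2.57e-12 and 1.94e-05). Of 15 tested glycogen genes, 3 were called higher and 5 were higher at the adjusted P alone. These shares were close to the 17.1% and 33.6% of all genes, with 3 lower at the adjusted P alone and a median of 0.084. PPP1R3B, a subunit that brings the phosphatase to glycogen, went from 6.87 ± 0.658 to 43.4 ± 1.65 CPM (2.66 ± 0.079, adjusted P = 2.72e-14), and the glycogen phosphorylases PYGL and PYGB rose by 1.15 and 1.04 on the log2 scale.

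Of 19 genes that control HIF, 1 was called lower and 1 higher, with 5 lower and 10 higher at the adjusted P alone, against 31.7% and 33.6% of all genes, and a median of 0.23. ARNT2, a relative of ARNT known from the nervous system, rose from 1.41 ± 0.333 to 8.11 ± 0.85 CPM (2.52 ± 0.19, adjusted P = 3.04e-09), and ELOC, a subunit of the ligase that marks HIF for breakdown, fell by 1.06 (adjusted P = 1.29e-11). Among 55 tested genes known to be induced by low oxygen, 8 were called lower and 21 higher, against 11.7% and 17.1% of all genes. At the adjusted P alone 15 were lower and 28 higher, against 31.7% and 33.6%, and the median was 0.74. This list was also chosen with earlier results of these data known, and it was not tested as a set. FLT1, a receptor for VEGFA, rose from 0.166 ± 0.0491 to 9.3 ± 0.525 CPM (5.78 ± 0.25), ANGPT2, a vessel-destabilising ligand, from 0.186 ± 0.00827 to 10.1 ± 1.37 (5.74 ± 0.24) and IGFBP3, a carrier of insulin-like growth factors, from 47 ± 0.131 to 2426 ± 27.9 (5.69 ± 0.057), with adjusted P = 2.60e-12, 1.58e-12 and 1.77e-19. Of the endothelial markers, CDH5 had 19, 14 and 18 counts in siEF, 16, 2 and 2 in siNEG and 3, 5 and 1 in Media, a log2 fold change of 1.65 against siNEG (adjusted P = 0.0262) and 2.69 against Media (adjusted P = 0.0028). VWF had 1, 1 and 3 counts in siEF, 0, 1 and 0 in siNEG and 1, 0 and 0 in Media. PECAM1 went the other way, from 3.69 ± 0.497 CPM in siNEG to 1.6 ± 0.457 in siEF (-1.22, adjusted P = 8.43e-05). The part of endothelial cells in the values of FLT1 and ANGPT2 was not tested.

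**Figure D5:**
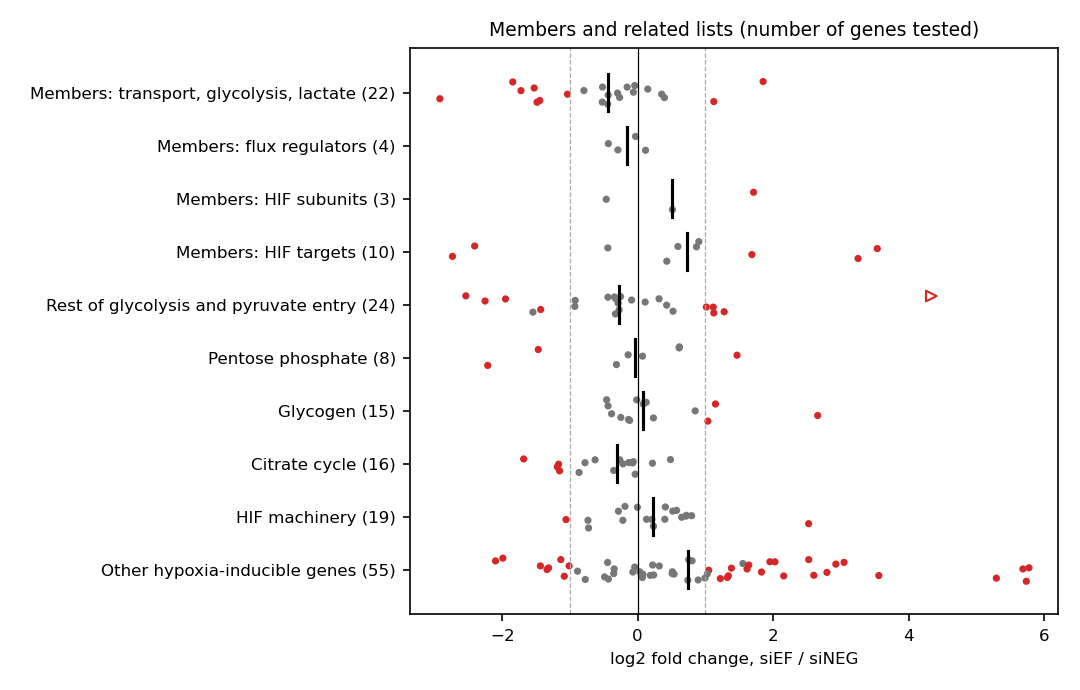
Log2 fold change between siEF and siNEG of the tested members by role and of genes of related lists (points, red where called), with the median of each list as a black bar and dashed lines at the thresholds of size. The open triangle is FBP1 at its lower bound of 20.2-fold. The lists were chosen with earlier results of these data known. The medians are below 0 for glycolysis and the citrate cycle and above 0 for HIF subunits, HIF targets and the other hypoxia-inducible genes, at 0.74.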

How the data were processed

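RNA of TC32 cells in the groups siEF, siNEG and Media was measured in 3 libraries each, and groups and replicate numbers were read from the sample titles. The labels give polyA RNA as the molecule but name a small RNA kit of NEB for the libraries, a conflict that could not be resolved from the sources used here, and they give batch 1 for every library and cutadapt 2.10. By the study's methods, the authors mapped reads to hg38 with STAR and deposited expected counts per gene from RSEM, unscaled for depth and with no pooling; the annotation release and strand setting are not given in the sources used here.

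Expected counts were rounded, filtered by filterByExpr (16093 of 60603 genes kept), scaled by TMM and compared by edgeR 4.0.16 (quasi-likelihood F test, Benjamini-Hochberg adjustment over 16093 genes, R 4.3.3), with all 9 libraries sharing the estimate of the spread. SE is the absolute log2 fold change over the square root of F. CPM used the scaled library sizes, and gene positions and exon lengths came from GENCODE 44. Shares used exact permutation tests (scipy 1.17.1). A fold against libraries at 0 used 3 counts per library. Libraries of a group differed by more than sampling noise (chi-square per degree of freedom 3.57 to 23.2) and counted as replicates. Tested on simulated data, edgeR recovered 94 of 100 genes changed by 1.5 and 80 of 100 changed by 0.75 on the log2 scale. This was for siEF against siNEG among 15755 genes, with 3 unchanged genes passing. Far fewer genes were changed there than in the data, where 31.7% were lower and 33.6% higher at the adjusted P alone. The simulated counts therefore describe only that setting.

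The members and lists were chosen with earlier results of these data known. Every library's value is given for members called between siEF and siNEG and for HIF1A, EPAS1, GAPDH, PFKFB3, LDHA and SLC2A1, and up to 3 called genes per list were named by size of change (at least 1 CPM in the higher group); SDHB and the marker genes were named beyond that rule. Alternatives were DESeq2 1.42.0, other scalings, filters, thresholds and controls, a replicate block, pseudogenes added, and each library left out.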

Additional observations from a re-analysis of the deposited data

How the results depend on the processing

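Over the alternatives run, members called lower between siEF and siNEG numbered 7 (test against the threshold of size itself) to 9, and those called higher 4 (the same test) to 8 (Media as the control). Leaving out 1 library gave 8 to 9 called lower and 5 to 6 called higher. The 8 sets of isozyme shares had no overlap between siEF and siNEG under any alternative run. In the main run 76.9% of all genes tested had no overlap in their levels either. Between siNEG and Media, DESeq2 passed 4 lower and 5 higher members and an adjusted P under 0.05 passed 6 and 5, and the lower count ranged from 2 to 5 with 1 library left out. For single members, 6 values changed sign. With upper quartile scaling, which raised the members' log2 fold changes by a median of 0.0865, HK1 became 0.043, GAPDH 0.024 and PFKFB4 0.055. With Media as the control PKM became -0.028 and VEGFA -0.057. PFKFB4 ranged from -0.12 to 0.033 with 1 library left out. The cause of these changes was not tested.

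Replicate numbers did not pair the libraries, since deviations of equal-numbered libraries correlated at -0.0875 to 0.0482. With the number as a replicate block, 9 members were called lower and 6 higher, 20 and 13 passed at the adjusted P alone, and 2 and 3 passed between siNEG and Media. SLC16A3 and ANKRD37 were not tested with at least 10 counts in every library, nor ANKRD37 with only the 6 libraries compared, because both have few counts. SLC16A3, ANKRD37, CA9 and ENO3 are limited by depth. Reads of opposite-strand genes cannot be told apart from theirs, nor from those of PFKFB2, BNIP3L and PFKM, because the strand setting is not given.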
